A study of Mus musculus with 10 samples.

Results

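The collagen genes were taken as every gene whose symbol reads Col, a number, a and a number. The rule found 44 genes among 52324 gene symbols in the deposited table, on 15 chromosomes. They were divided into 11 fibrillar chains, 6 type IV chains and 27 others (beaded-filament, fibril-associated, network, anchoring, transmembrane and multiplexin types). A level here is a gene's FPKM (fragments per unit of transcript length and of library size), summed over its transcripts and rescaled so that all rows outside the mitochondrial genome sum to 1000000 in each library. Of the 44 genes, 22 reached 1 rescaled FPKM in at least 2 libraries and were tested: 7 fibrillar, 3 type IV and 12 others.

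The libraries came from tumours grown under the skin of mice from 4T1 cells, a mouse mammary carcinoma line, taken on day 14. Each of 5 groups had 2 libraries, and all carried the same tumour line. The negative control received PBS according to the design text. MK1775, an inhibitor of the kinase WEE1, was given in a form labelled Free or in a form labelled Lipo, and each form was also combined with NLG919, an inhibitor of the IDO1 pathway. The combined groups are labelled Free-MK1775+NLG919 and Lipo-MK1775+NLG, and the design text writes NLG919 for the latter too. The labels do not state what the forms are made of, the doses, the strain or age of the mice, or whether the libraries of a group stem from different mice. The p-values therefore measure only the spread between these samples, which may be technical.

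Collagens are matrix proteins built from chains that wind into a helix. Fibrillar collagens (types I, III and V in most soft tissue) form the ropes of the interstitial matrix and are made mainly by fibroblasts, whereas type IV collagen forms the sheet of basement membranes under epithelium and around vessels. Other types tie these structures together: type VI forms beaded filaments, types XII, XIV and XVI sit on fibrils, types XV and XVIII lie in basement membrane zones, type VII anchors skin epithelium and type XVII spans the membrane of basal skin cells. In tumours the stroma is a known main source of fibrillar collagen. The label calls the cell type cancer cell, yet markers of other cells were present in all 10 libraries: summed fibroblast markers (12 genes) stood at 149.9 to 318 rescaled FPKM and endothelial markers (10 genes) at 53.1 to 203, beside 939 to 1866 for epithelial markers of the 4T1 cells (7 genes). In bulk tissue, fewer cells of a type and less RNA per cell cannot be told apart.

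In 3 libraries, both of Lipo-MK1775 and replicate 2 of Free-MK1775+NLG919, the mitochondrial genome made up 64.1%, 56.0% and 47.3% of the summed deposited FPKM, against 2.88% to 4.82% in the other 7. Those 3 also had fewer genes at 1 or more (12233 to 12706 against 13565 to 14337) and a smaller share of nuclear value on transcripts of at least 4 kb (5.79% to 6.43% against 11.4% to 14.8%). In every comparison with Lipo-MK1775 the treatment and these library features cannot be told apart. The median of the 15469 genes tested was itself -0.78 log2 units for Lipo-MK1775 against the control and -0.44 for Free-MK1775+NLG919, and -1.16 over the 4083 genes with transcripts of at least 4 kb in the former, so changes are also given relative to the median. Over the 10 libraries together the summed value of the 44 collagens ran from 608 in Free-MK1775+NLG919 replicate 2 to 1726 in Free-MK1775 replicate 2.

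Col4a1 and Col4a2, the chains of the most common type IV trimer, lie head to head on mouse chromosome 8. In the deposited coordinates (GRCm39) Col4a1 spans 11248423 to 11362826 on the minus strand and Col4a2 spans 11362805 to 11499287 on the plus strand, so that the spans overlap by 22 bases. Their promoter windows, 250 bases before to 50 after the RefSeq start on build GRCm38.p6, are shown because the pair lies head to head. The part of these windows in the levels was not tested. Col4a1 is chr8:11312777-11313076 on the minus strand and Col4a2 is chr8:11312555-11312854 on the plus strand. The start sites are 21 bases apart, and 78 bases of each window are the reverse complement of the other. Capitals mark CCAAT or GGGCGG (a core of the Sp1 motif) on either strand.
Col4a1: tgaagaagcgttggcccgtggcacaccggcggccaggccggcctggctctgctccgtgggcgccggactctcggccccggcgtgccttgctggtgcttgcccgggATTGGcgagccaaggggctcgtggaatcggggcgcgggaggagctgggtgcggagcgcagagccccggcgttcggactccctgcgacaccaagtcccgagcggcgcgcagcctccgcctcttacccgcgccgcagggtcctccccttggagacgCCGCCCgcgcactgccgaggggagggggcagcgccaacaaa
Col4a2: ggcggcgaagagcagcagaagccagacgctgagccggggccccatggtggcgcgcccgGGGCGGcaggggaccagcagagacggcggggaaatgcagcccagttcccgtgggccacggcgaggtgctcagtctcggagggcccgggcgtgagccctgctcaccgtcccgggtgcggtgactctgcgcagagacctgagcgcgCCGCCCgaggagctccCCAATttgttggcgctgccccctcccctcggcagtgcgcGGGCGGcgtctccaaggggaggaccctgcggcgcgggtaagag
The windows of fibrillar genes, Col1a2 (chr6:4505368-4505667, plus strand) and Col3a1 (chr1:45311288-45311587, plus strand), are given for contrast with the same capitals.
Col1a2: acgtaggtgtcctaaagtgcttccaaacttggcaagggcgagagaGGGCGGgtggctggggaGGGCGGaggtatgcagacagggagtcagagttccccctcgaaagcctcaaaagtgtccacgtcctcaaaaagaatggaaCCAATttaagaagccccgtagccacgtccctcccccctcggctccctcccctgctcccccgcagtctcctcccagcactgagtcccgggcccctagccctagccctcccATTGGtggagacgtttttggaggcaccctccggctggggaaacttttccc
Col3a1: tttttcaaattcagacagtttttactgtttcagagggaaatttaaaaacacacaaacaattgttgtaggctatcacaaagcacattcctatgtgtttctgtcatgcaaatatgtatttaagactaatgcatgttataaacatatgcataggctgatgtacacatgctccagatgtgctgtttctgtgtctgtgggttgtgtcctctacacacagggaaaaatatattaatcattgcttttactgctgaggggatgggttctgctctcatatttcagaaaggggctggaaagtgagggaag
The Col4a1 and Col4a2 windows held 74.0% and 73.7% G and C, against 61.0% for Col1a2 and 37.7% for Col3a1, whose window has neither motif. RefSeq windows were found for 35 of the 44 members (38 windows). CCAAT occurred in 13 of the 38 (34.21%) and in 37.41% of all 32851 windows of this length, and GGGCGG in 23 of the 38 (60.53%) and in 35.66% of all. These are descriptions of letters and not of binding.

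In the negative control Col4a1 had the highest level of the collagens by symbol, and Col4a2 the next by mean. Col4a1 was at 329 and 315 rescaled FPKM and Col4a2 at 227 and 204 in replicates 1 and 2, and only Col18a1, at 238 in replicate 2, exceeded Col4a2 within a library. Of the fibrillar chains, Col1a1 and Col1a2 of type I collagen followed at 122 and 105, and at 112 and 102, with Col3a1 of type III at 131 and 85.4. Col18a1, whose product gives rise to the fragment endostatin, was at 97.7 and 238, Col6a1 at 85.2 and 133, and Col8a1, a short chain of vessel-wall networks, at 103 and 97.2. The ranges of these 6 genes overlapped, apart from those of Col1a1 and Col8a1, so their order by symbol is not resolved. With symbol-less transcripts added, Col18a1 had a control mean of 318, beside 322 for Col4a1 and 215 for Col4a2, and lay above the rest of these 6 genes. It then exceeded Col4a1 in replicate 2 of the negative control, of Free-MK1775 and of Free-MK1775+NLG919. By symbol, Col4a1 had the highest level of all collagens in 7 libraries. In the 3 libraries of high mitochondrial share the leader was Col6a1 (2 libraries) or Col3a1 (1 library).

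Chains that assemble into one trimer differed in how steady their ratio was. Col4a1 over Col4a2 lay between 1.39 and 1.68 in all 10 libraries, a narrow range while the level of Col4a1 itself ran from 50.6 to 334. Col1a1 over Col1a2 lay between 0.94 and 1.68, with the highest value in Free-MK1775+NLG919 replicate 2 and 1.23 or less elsewhere. Col6a1 over Col6a2 ran from 1.41 to 3.03, while Col6a3 over Col6a1 reached at most 0.157 by symbol and ran from 0.0149 to 0.325 with symbol-less transcripts added. Col5a1 over Col5a2 ran from 0.142 to 5.40 by symbol and from 0.854 to 7.08 with symbol-less transcripts added. The lowest value by symbol, in Lipo-MK1775 replicate 1, became 1.18 with these. The highest by symbol, in Free-MK1775+NLG919 replicate 2, rested mainly on a Col5a1 transcript of 6 exons at 21.2. The named Col5a1 transcript of 66 exons was at 3.89 there. The ratio of 2 genes within a library does not depend on a scaling by 1 factor per library.

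The 22 members below the filter were low everywhere. Col9a1, Col9a2, Col19a1, Col22a1 and Col26a1 were listed at 0 in all 10 libraries. The highest single value among the rest was 1.77 for Col6a5, in Lipo-MK1775 replicate 2, and the highest mean over libraries was 0.727, for the fibrillar chain Col27a1. Col27a1 lay just outside the filter (1 library at 1 or more), and Col11a2 (mean 0.686) and Col9a3 (mean 0.831) lay just inside it with 2 libraries each, both of them Free-MK1775+NLG919 libraries. Col2a1 and Col11a1, fibrillar chains known from cartilage, did not exceed 0.216, and the cartilage marker Acan was listed at 0 in all libraries. The kidney and eye chains Col4a3 and Col4a4 did not exceed 0.120.

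**Figure D1:**
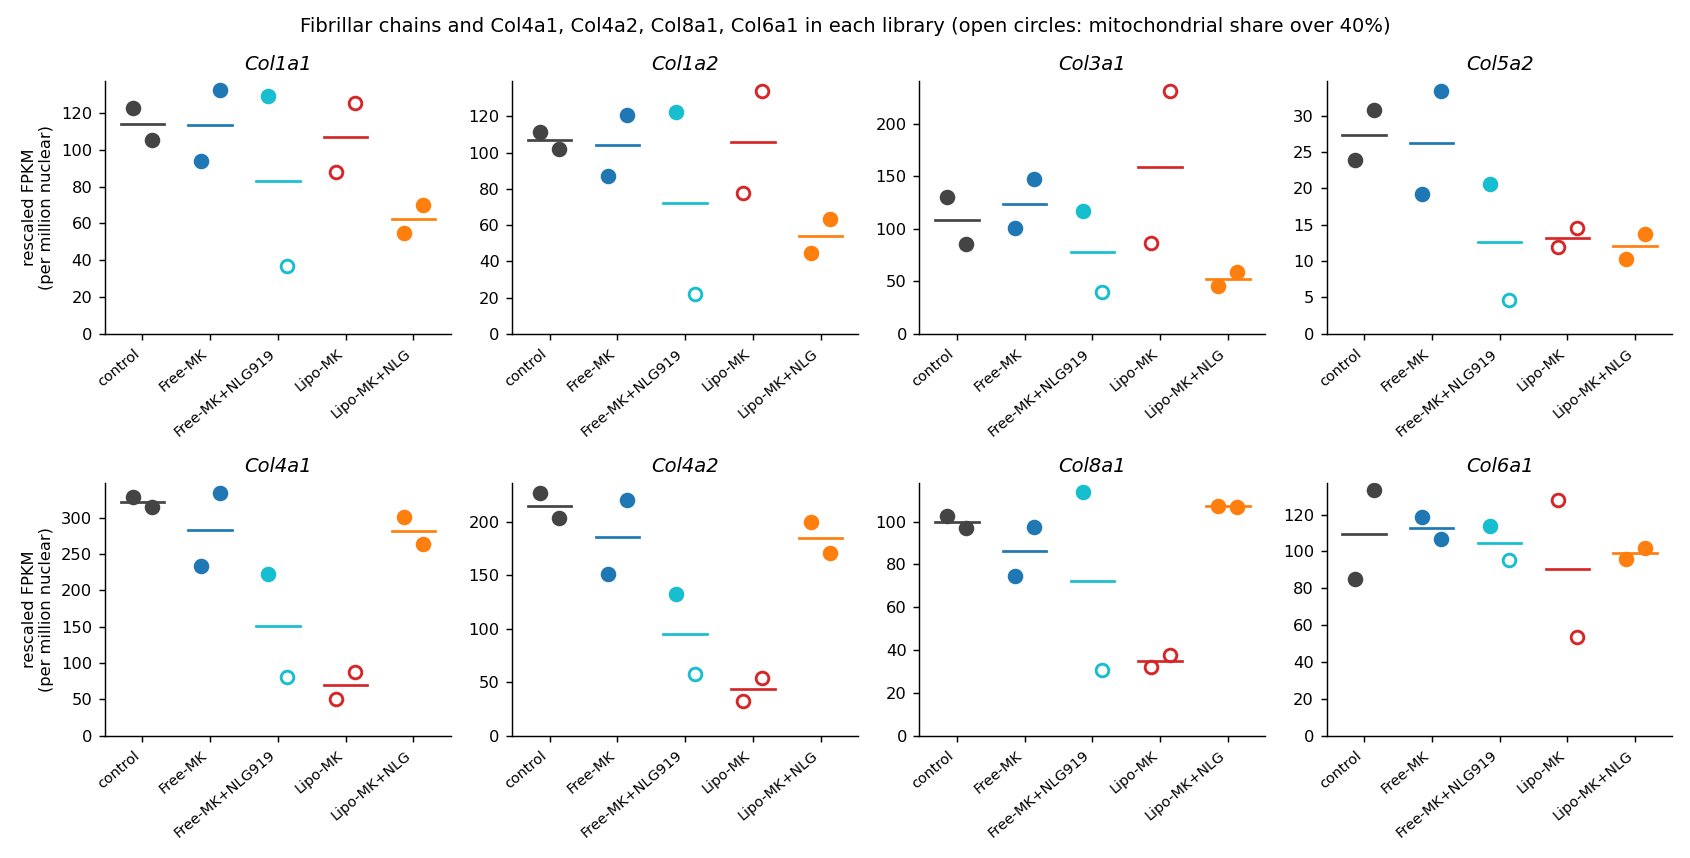
Rescaled FPKM of 8 collagens in each of the 10 libraries by group (points; bars are group means of 2 libraries, open circles mark the 3 libraries with a mitochondrial share over 40%). Col4a1, Col4a2 and Col8a1 were low in the open-circle libraries (Col4a1 at 50.6, 87.3 and 80.4), Col1a1, Col1a2 and Col3a1 were low in both Lipo-MK1775+NLG libraries, and Col6a1 had its extremes within the control and Lipo-MK1775 groups.

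Type IV collagen was lower in Lipo-MK1775 tumours. Col4a1 stood at 50.6 and 87.3 rescaled FPKM in Lipo-MK1775, at 329 and 315 in the control, at 233 and 334 in Free-MK1775, at 222 and 80.4 in Free-MK1775+NLG919, and at 301 and 264 in Lipo-MK1775+NLG. Both Lipo-MK1775 libraries lay below both libraries of the control, of Free-MK1775 and of Lipo-MK1775+NLG, while replicate 2 of Free-MK1775+NLG919 lay between them. Col4a2 followed with 32.7 and 53.7 in Lipo-MK1775, 227 and 204 in the control, 151 and 220.3 in Free-MK1775, 132 and 57.7 in Free-MK1775+NLG919, and 199.99 and 170.5 in Lipo-MK1775+NLG. The groups separated in the same way, except that replicate 2 of Free-MK1775+NLG919 lay just above both Lipo-MK1775 libraries.

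Against the control, limma called 3 of 22 collagens lower and 0 higher in Lipo-MK1775 (13.6%), where 21% of all genes tested were called in either direction, 19.4% lower and 1.62% higher. Col4a1 fell from 322 ± 9.90 to 69.0 ± 26.0 rescaled FPKM (SD, n = 2), or by 2.26 log2 units (SE 0.45, limma adjusted p = 0.0277), and stood at -1.48 relative to the median of all genes. Col4a2 went from 215 ± 16.6 to 43.2 ± 14.8 and fell by 2.33 on the log2 scale (SE 0.40, limma adjusted p = 0.0251) and -1.55 relative to the median. Col15a1, a multiplexin of basement membrane zones, was at 22.0 and 23.9 in the control and 4.46 and 5.73 in Lipo-MK1775 and fell by 1.98 on the log2 scale (SE 0.47, limma adjusted p = 0.0325). The unadjusted p was under 0.05 for 9 of the 22 (40.9%), beside 43.5% of all genes. For 14 of the 22 both Lipo-MK1775 libraries lay below both control libraries, beside 67.2% of all genes that were lower without overlap.

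The changes of the type IV pair kept their sign and their call under 3 scalings but not their size: Col4a1 was -2.65 with the deposited FPKM, -2.26 after the rescaling to nuclear rows and -1.38 under median-of-ratios scaling, and Col4a2 -2.69, -2.33 and -1.46. Leaving out single libraries moved the limma adjusted p of Col4a2 to 0.113 without Lipo-MK1775 replicate 1, to 0.168 and 0.118 without negative control replicate 1 or 2 and to 0.0536 and 0.0537 without Lipo-MK1775+NLG replicate 1 or 2, so its call ended there, at log2 changes of -1.98 to -2.41. The call of Col4a1 ended without the same 5 libraries (0.121 to 0.173 for the first 3, and 0.0555 and 0.0554 for the last) and without Lipo-MK1775 replicate 2 (0.0593), as well as with no filter on low values (0.0538).

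NLG919 added to Lipo-MK1775 went with a higher level of the same pair. Col4a1 rose from 69.0 ± 26.0 to 282 ± 26.6 rescaled FPKM (SD, n = 2; log2 change 2.07, SE 0.45, limma adjusted p = 0.0456; 1.32 relative to the median of all genes, 0.75). Col4a2 rose from 43.2 ± 14.8 to 185 ± 20.8 (2.11, SE 0.40, limma adjusted p = 0.0421). These were the 2 of 22 members called (9.09%), beside 5.34% of all genes, and 6 of 22 had an unadjusted p under 0.05 (27.3%), beside 41.4% of all genes. For 10 of 22 both Lipo-MK1775+NLG libraries were higher than both Lipo-MK1775 libraries, beside 68.6% of all genes. Lipo-MK1775 against Free-MK1775 gave 2 members too, beside 3.39% of all genes: Col4a1 fell by 2.05 (limma adjusted p = 0.0491) and Col4a2 by 2.09 (limma adjusted p = 0.0439). Both comparisons share the Lipo-MK1775 libraries with the control comparison. The calls in them ended under median-of-ratios scaling (1.21 and 1.26 for the addition of NLG919, -1.24 and -1.29 for the form). They also ended without any single library outside Free-MK1775+NLG919, at limma adjusted p of 0.0666 to 0.255 for the former and 0.0718 to 0.239 for the latter.

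Lipo-MK1775+NLG and the control did not differ in the type IV pair beyond the fitted error: the log2 change was -0.19 for Col4a1 (SE 0.45) and -0.22 for Col4a2 (SE 0.40), with limma adjusted p = 1 for both. Both libraries of the former lay below both of the latter, by a small distance. In Free-MK1775+NLG919, replicate 1 was at 222 and replicate 2, the library of high mitochondrial share, at 80.4 for Col4a1, so that the group change of -1.26 (limma adjusted p = 0.196) rested on unlike libraries; it was -0.53 without the 3 libraries of high share. Col4a5, a chain of other type IV trimers, was at 3.53 and 2.27 in the control, 9.20 and 2.32 in Free-MK1775, 15.9 and 5.76 in Free-MK1775+NLG919, 2.92 and 0.675 in Lipo-MK1775, and 5.50 and 2.73 in Lipo-MK1775+NLG. It was called in none of the 8 comparisons and did not follow the pair: its ratio to Col4a1 ran from 0.00695 to 0.0717.

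Other basement membrane genes were compared in the same libraries. Of 13 tested partners (laminins, nidogens, perlecan, agrin and others), limma called 6 lower and 0 higher in Lipo-MK1775 against the control, beside 19.4% of all genes called lower, and the median was -1.69, beside -0.78 over all genes. Lamb1, a laminin chain, was at 225 and 259 rescaled FPKM in the control and 88.4 and 83.7 in Lipo-MK1775 (-1.48, limma adjusted p = 0.0271). Sparc, a collagen-binding matricellular protein, was at 644 and 584 against 286 and 378 (-0.90, limma adjusted p = 0.0604). Against Lipo-MK1775, all 13 had a positive log2 change in Lipo-MK1775+NLG and 4 were called, beside 5.34% of all genes. Against the control 0 of 13 were called in Lipo-MK1775+NLG, beside 0.00646% of all genes. In that comparison 10 of the 13 had a negative log2 change (median -0.29, beside -0.02 over all genes). For 6 of the 13 the libraries were lower without overlap, beside 23.4% of all genes.

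Markers of vessel cells were low in Lipo-MK1775, as the type IV pair was, and their part in it was not tested. In Free-MK1775+NLG919 the summed type IV level was 371 and 144 in replicates 1 and 2, a wider gap than for endothelial markers. Nor were low medians in Lipo-MK1775 against the control particular to vessel cells (-1.44 endothelial, -1.13 pericyte). They were -1.58 for skeletal muscle and -1.23 for Schwann cell markers, but -0.05 for macrophage and 0.24 for adipocyte markers. The summed level of 10 endothelial markers was 182 and 150.1 in the control, 193 and 164 in Free-MK1775, 129 and 107 in Free-MK1775+NLG919, 67.2 and 53.1 in Lipo-MK1775, and 203 and 151 in Lipo-MK1775+NLG. Limma called 7 of the 10 lower in Lipo-MK1775 against the control, beside 19.4% of all genes; Pecam1 was at 42.9 and 34.4 in the control and 12.97 and 6.98 in Lipo-MK1775, while Egfl7 was at 16.7 and 26.8 against 12.0 and 21.5. None of the 10 was at 0 in all libraries. The 7 pericyte markers summed to 133 and 95.0 in the control and 19.2 and 29.97 in Lipo-MK1775, with 2 of 6 tested called lower beside the same 19.4%; Mcam was at 59.4 and 62.7 against 9.07 and 12.0, and Des at 52.3 and 14.6 against 3.07 and 11.3.

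The type I and type III chains overlapped the control in Lipo-MK1775. In Lipo-MK1775, Col1a1 was at 88.1 and 125 rescaled FPKM, beside 122 and 105 in the control, 93.9 and 132 in Free-MK1775, 129 and 36.8 in Free-MK1775+NLG919, and 54.9 and 69.9 in Lipo-MK1775+NLG. The Lipo-MK1775 and control libraries overlapped, and both Lipo-MK1775+NLG libraries lay below both of the control. Col1a2 was at 77.6 and 134 in Lipo-MK1775, 112 and 102 in the control, 87.1 and 121 in Free-MK1775, 122 and 21.9 in Free-MK1775+NLG919, and 44.5 and 63.2 in Lipo-MK1775+NLG. Col3a1 was at 86.7 and 231 in Lipo-MK1775, 131 and 85.4 in the control, 100.5 and 147 in Free-MK1775, 117 and 39.8 in Free-MK1775+NLG919, and 45.5 and 59.1 in Lipo-MK1775+NLG. All 3 chains had their lowest level in Free-MK1775+NLG919 replicate 2 and then in the Lipo-MK1775+NLG libraries.

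For Lipo-MK1775 against the control none of the 7 tested fibrillar chains was called by limma, beside 19.4% of all genes called lower and 1.62% higher. Of the 7, 6 had a negative log2 change, and the values ran from -3.14 for Col5a3 to 0.42 for Col3a1. For 4 of the 7 (Col5a1, Col5a2, Col5a3 and Col11a2) the libraries were lower without overlap, beside 67.2% of all genes. Col11a2 was near the filter minimum and passed it only through Free-MK1775+NLG919. The log2 change was -0.11 for Col1a1 (SE 0.51), -0.06 for Col1a2 (SE 0.66) and 0.42 for Col3a1 (SE 0.57); with the deposited FPKM these values were -0.55, -0.50 and -0.02, and under median-of-ratios scaling 0.77, 0.81 and 1.30, so their direction depends on the scaling. Relative to the median of all genes, the fibrillar median was 0.30 and the type IV median -1.48. The 12 others had a median of -1.42, or -0.64 relative to all genes. The median of the 22 tested collagens was -1.16, beside -0.78 over all genes. Over the 4083 genes with transcripts of at least 4 kb the median was also -1.16, and the part of transcript length in these values was not tested.

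Lipo-MK1775 replicate 2 held the highest Col3a1 and Col1a2 of all libraries. That library also had the highest summed adipocyte markers (216, beside 29.8 in the other Lipo-MK1775 library and 49.0 to 128 in the other 8) and the highest Dcn, a proteoglycan of collagen fibrils, at 186 beside 65.9. Summed fibroblast markers were 215 and 315 in Lipo-MK1775, 306 and 318 in the control and 149.9 in Free-MK1775+NLG919 replicate 2. Of 12 fibroblast markers, limma called 1 higher and 0 lower in Lipo-MK1775 against the control, beside 1.62% and 19.4% of all genes. By sign, 4 of the 12 were higher and 8 lower, with a median of -0.43, beside -0.78 over all genes. Whether these cells play a part in the collagen values was not tested.

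In Lipo-MK1775+NLG the fibrillar chains stood lowest relative to the control, but no gene of the class passed the test. All 7 tested chains had a negative log2 change (median -0.99, beside -0.02 for all genes), 5 of them without overlap; with symbol-less transcripts added, Col5a1 turned to 0.12. Col5a2, a chain of type V collagen that starts fibrils, was at 10.3 and 13.8 against 23.9 and 30.8 (log2 change -1.12, SE 0.58, unadjusted p = 0.0848, limma adjusted p = 1), and Col3a1 had -1.01, Col1a2 -0.99 and Col1a1 -0.86. These values were nearly the same under the other scalings (-0.95 and -1.09 for Col5a2, -0.92 and -0.99 for Col3a1). Limma called 0 of 22 members in this comparison, beside 0.00646% of all genes, and 0 had an unadjusted p under 0.05, beside 2.52% of all genes. Libraries did not overlap for 10 of 22 members that were lower, beside 23.4% of all genes lower without overlap. Without the 3 libraries of high mitochondrial share, which narrows the pooled spread, 7 of 20 members tested had an unadjusted p under 0.05 (beside 7.36% of all genes), among them Col1a2, Col12a1 and Col1a1 (each with limma adjusted p = 0.618), and 0 were called.

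Genes of the fibril-associated matrix did not pass the test there either. Of 15 tested, 14 had a negative log2 change in Lipo-MK1775+NLG against the control (median -0.58, beside -0.02 for all genes). Limma called 0 of the 15, beside 0.00646% of all genes. Fn1, fibronectin, was at 1168 and 1292 in the control and 1293 and 939 in Lipo-MK1775+NLG, and Dcn at 141 and 112 against 76.0 and 93.5. Summed fibroblast markers were 275 and 293 in Lipo-MK1775+NLG and so below both control libraries (306 and 318); their part was not tested.

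The balance of fibrillar over type IV collagen separated the Lipo groups. The log2 ratio of the summed fibrillar to the summed type IV level, which does not depend on a scaling by 1 factor per library, was -0.31 and -0.42 in the control, -0.21 and -0.13 in Free-MK1775, 0.25 and -0.15 in Free-MK1775+NLG919, 1.63 and 1.93 in Lipo-MK1775, and -1.36 and -0.92 in Lipo-MK1775+NLG. Both Lipo-MK1775 libraries lay above all 8 others, and both Lipo-MK1775+NLG libraries below all 8 others. The means were -0.37 ± 0.08 (SD, n = 2) in the control, 1.78 ± 0.21 in Lipo-MK1775 and -1.14 ± 0.31 in Lipo-MK1775+NLG, with a pooled SD of 0.216 over the 5 groups. With 2 libraries a group an exact two-sided permutation test cannot go below p = 0.3333, so no test was made. Free-MK1775+NLG919 replicate 2, the other library of high mitochondrial share, was at -0.15. For Lipo-MK1775, treatment and that share cannot be told apart, and the part of the share in this ratio was not tested.

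**Figure D2:**
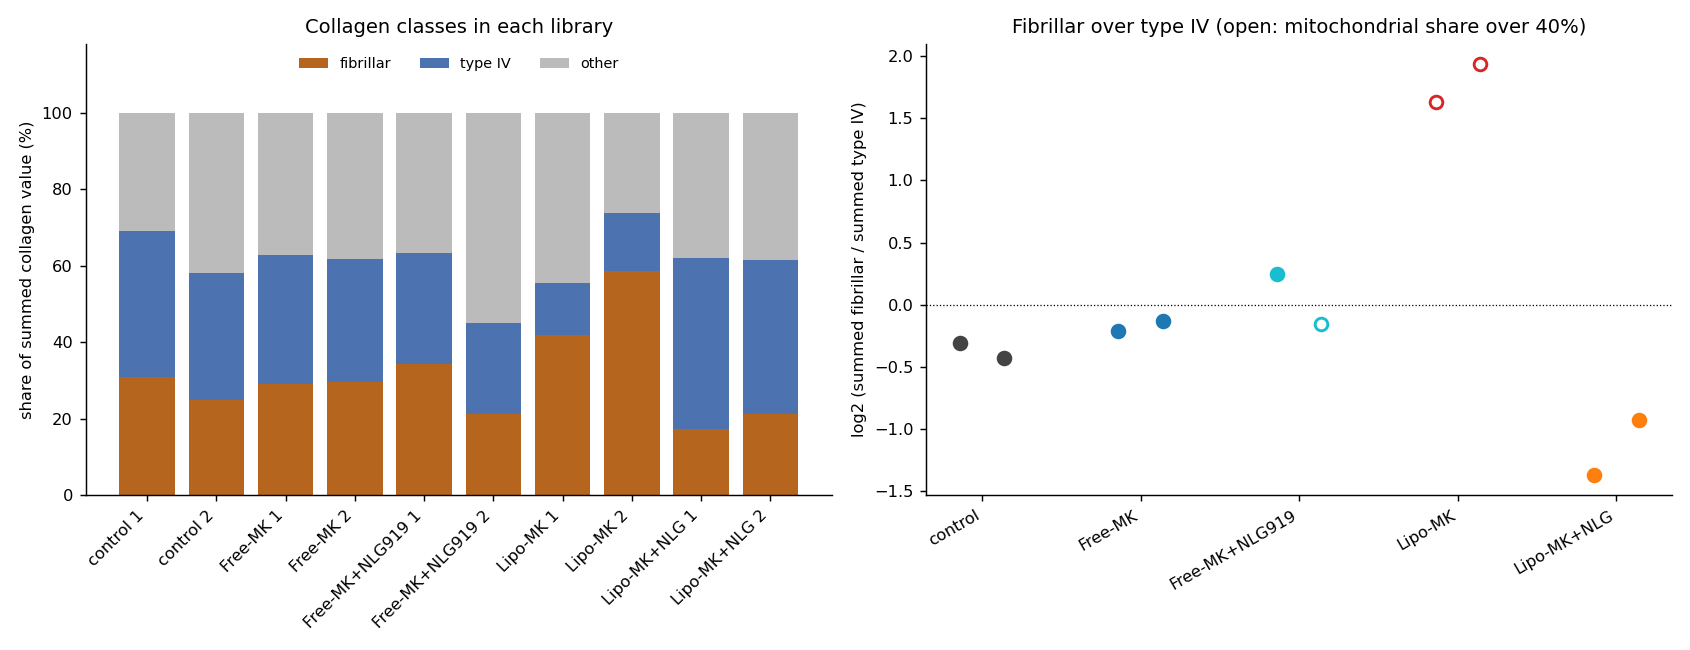
Left, share of the summed collagen level (%) taken by fibrillar, type IV and other chains in each library; right, log2 of summed fibrillar over summed type IV level by group (each point is 1 library, open for a mitochondrial share over 40%). Type IV chains held 13.5% and 15.4% in Lipo-MK1775 and 44.6% and 40.3% in Lipo-MK1775+NLG, and the ratio was highest in the former and lowest in the latter.

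As shares of the summed collagen level, type IV chains took 38.2% and 33.3% in the control, 13.5% and 15.4% in Lipo-MK1775, and 44.6% and 40.3% in Lipo-MK1775+NLG. Fibrillar chains took 30.9% and 24.8%, 41.8% and 58.5%, and 17.3% and 21.2% in the same order. The summed fibrillar level itself was 452 and 388 rescaled FPKM in the control, 267 and 541 in Lipo-MK1775 and 197 and 230.2 in Lipo-MK1775+NLG. The summed type IV level was 559.6 and 521, 86.4 and 142, and 507 and 437 in the same order.

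Type V chains were uneven. Col5a3 was at 42.7 and 42.0 rescaled FPKM in the control, 16.8 and 52.5 in Free-MK1775, 4.36 and 0.0634 in Free-MK1775+NLG919, 0.290 and 17.9 in Lipo-MK1775, and 19.3 and 6.77 in Lipo-MK1775+NLG. Both Free-MK1775+NLG919 libraries lay below every control and Free-MK1775 library, and within Lipo-MK1775 the libraries lay far apart. Its log2 change in Free-MK1775+NLG919 against the control was -4.18 (SE 1.22, unadjusted p = 0.00787, limma adjusted p = 0.165) and -3.69 against Free-MK1775 (limma adjusted p = 0.432). With symbol-less transcripts of the locus added it was -2.81 (limma adjusted p = 0.0873). Col5a1 was at 19.2 and 20.4 in the control, 21.1 and 21.5 in Free-MK1775, 45.4 and 25.1 in Free-MK1775+NLG919, 1.69 and 16.9 in Lipo-MK1775, and 21.0 and 16.2 in Lipo-MK1775+NLG. By symbol, Free-MK1775+NLG919 lay above all other groups for this chain, at a log2 change of 0.74 (SE 0.73, limma adjusted p = 0.539). In its replicate 2, however, a transcript of 6 exons held 21.2 of the level. The named transcript of 66 exons was at 3.89 there, beside 18.8 and 19.7 in the control.

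Col5a2 was at 19.2 and 33.3 in Free-MK1775, 20.6 and 4.65 in Free-MK1775+NLG919 and 11.9 and 14.6 in Lipo-MK1775. It was lower than the control without overlap in the 3 groups other than Free-MK1775 and was called in none. Col11a2 ran from 0.206 to 1.14 over the libraries.

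**Figure D3:**
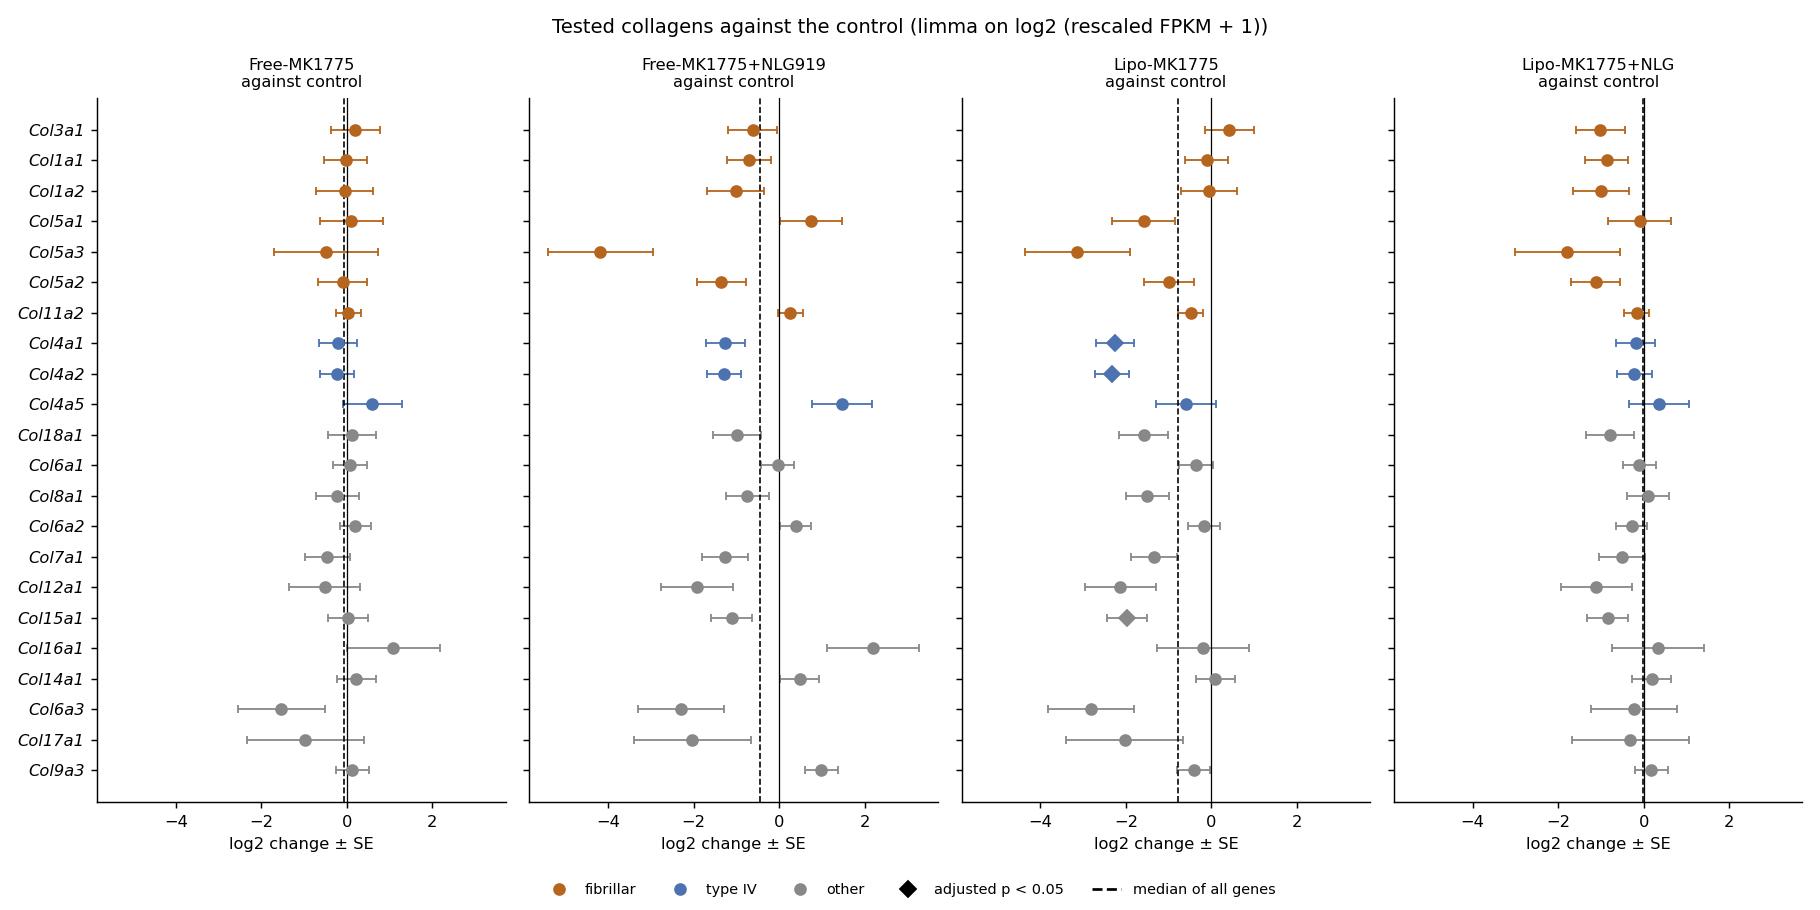
Log2 change (point) and standard error (bar) of the 22 tested collagens in each treated group against the control, from limma on log2 of rescaled FPKM plus 1; diamonds are adjusted p under 0.05 and the dashed line is the median of all 15469 genes. The diamonds are Col4a1 (-2.26), Col4a2 (-2.33) and Col15a1 (-1.98) in Lipo-MK1775, and in Lipo-MK1775+NLG the 7 fibrillar chains lie at or left of 0.

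Of the multiplexins, Col15a1 was at 18.8 and 29.0 in Free-MK1775, 17.3 and 5.69 in Free-MK1775+NLG919, and 13.1 and 11.5 in Lipo-MK1775+NLG, which lay between the control and Lipo-MK1775 without overlap with either. Its call in Lipo-MK1775 ended under median-of-ratios scaling (-1.19, limma adjusted p = 0.0577). It also ended without any single library outside the Free-MK1775+NLG919 group, at limma adjusted p of 0.0520 to 0.173. Col18a1 was at 97.7 and 238 in the control, 103 and 267 in Free-MK1775, 85.8 and 68.5 in Free-MK1775+NLG919, 38.2 and 65.7 in Lipo-MK1775, and 121 and 63.6 in Lipo-MK1775+NLG. The libraries of the control and of Free-MK1775 thus differed more than 2-fold within the group.

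In addition to 5 transcripts with a symbol, the deposited table lists 2 assembled ones at the same locus with no symbol. With these added, Col18a1 was at 311 and 325 in the control, 219 and 349 in Free-MK1775, 208 and 94.5 in Free-MK1775+NLG919, 45.5 and 86.7 in Lipo-MK1775, and 284 and 241 in Lipo-MK1775+NLG. The control libraries then agreed closely, and the log2 change in Lipo-MK1775 was -2.32 (SE 0.41, limma adjusted p = 0.0111), beside -1.58 (limma adjusted p = 0.0705) from named transcripts alone.

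Col16a1 and Col6a3 also had much of their value in such transcripts. Symbol-less transcripts raised the mean of Col16a1, a fibril-associated collagen, from 8.70 to 66.3 and that of Col6a3, the long chain of type VI, from 4.22 to 14.2, and only these and Col18a1 of the 44 members moved by over 1.5 times. By symbol, Col16a1 stood at 19.9 in Free-MK1775 replicate 2, at 44.8 in Free-MK1775+NLG919 replicate 2 and at 1.63 to 4.58 in the other 8 libraries. With the locus summed it was at 74.0 and 98.1 in the control, 57.6 and 100.5 in Free-MK1775, 62.6 and 72.3 in Free-MK1775+NLG919, 19.98 and 31.7 in Lipo-MK1775, and 81.2 and 65.2 in Lipo-MK1775+NLG. On this sum both libraries that were high by symbol no longer lay far from the control libraries, and the Lipo-MK1775 libraries were lowest (log2 change -1.72, SE 0.33, limma adjusted p = 0.0119, beside -0.20 by symbol). In Free-MK1775+NLG919 replicate 2, however, a transcript of 3 exons and 840 bases held 43.1 of the sum. The highest assembled transcript there, of 71 exons, was at 25.9, so the place of this library rests on the short transcript.

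With symbol-less transcripts added to every gene, 23 members were tested. Limma then called 9 collagens lower in Lipo-MK1775 against the control (39.1%, beside 41.6% of all genes): Col4a1, Col4a2, Col15a1, Col18a1, Col16a1, Col6a3, Col8a1, Col7a1 and Col5a3. It called 6 higher in Lipo-MK1775+NLG against Lipo-MK1775 (beside 35.8% of all genes) and 6 lower in Lipo-MK1775 against Free-MK1775 (beside 29.5%).  As shares of the 23 members these 6 are 26.1%.

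**Figure D4:**
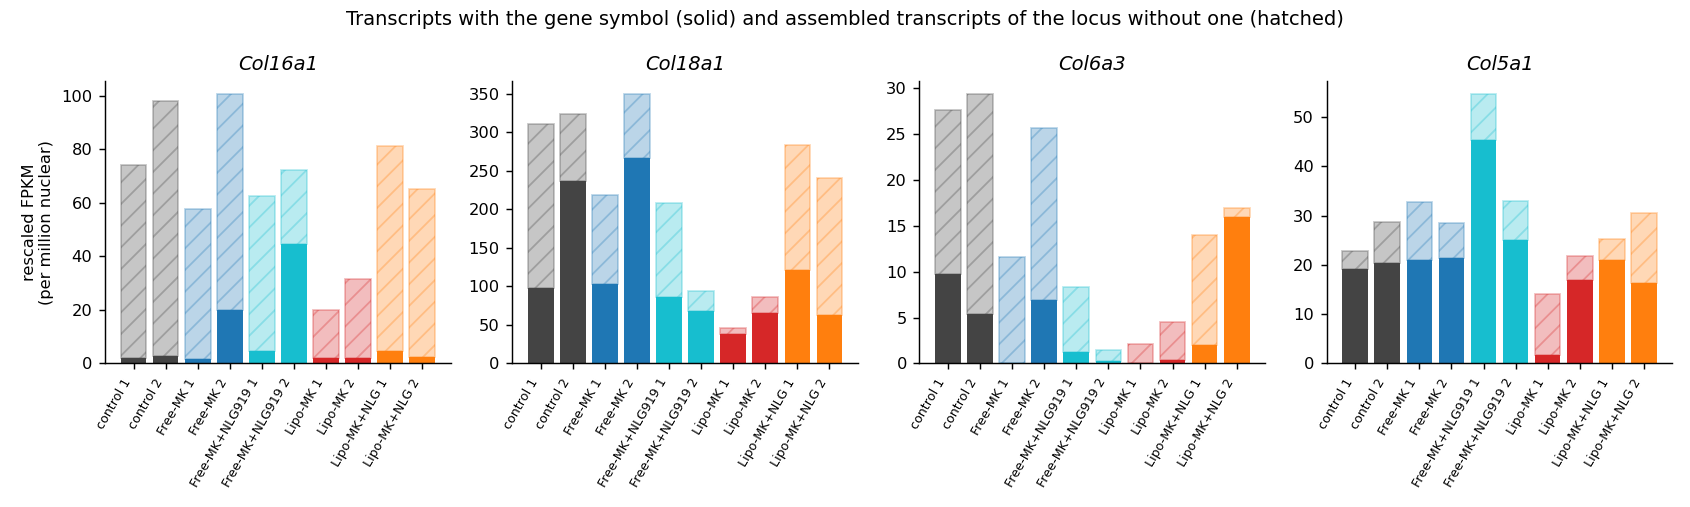
Rescaled FPKM of Col16a1, Col18a1, Col6a3 and Col5a1 in each library, divided into transcripts that carry the gene symbol (solid) and assembled transcripts of the same locus without a symbol (hatched). Col16a1 by symbol reaches 44.8 in Free-MK1775+NLG919 replicate 2, whereas its full bars are lowest in Lipo-MK1775 (19.98 and 31.7).

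The beaded-filament chains Col6a1 and Col6a2 of type VI varied little between groups. Col6a1 was at 85.2 and 133 rescaled FPKM in the control, 119 and 107 in Free-MK1775, 114 and 95.5 in Free-MK1775+NLG919, 128 and 53.6 in Lipo-MK1775, and 96.0 and 102 in Lipo-MK1775+NLG. Col6a2 was at 40.8 and 59.2, 66.9 and 48.0, 61.9 and 67.7, 57.1 and 33.0, and 31.7 and 51.3 in the same order of groups. Each treated group overlapped the control for both chains, except for Col6a2 in Free-MK1775+NLG919, above the control. The log2 change from the control lay between -0.36 and 0.39 over both chains and the 4 treated groups, none of them called; for Lipo-MK1775 it turned from -0.36 to 0.51 for Col6a1 and from -0.18 to 0.69 for Col6a2 under median-of-ratios scaling. Another symbol, Gm48276, shares the Col6a1 locus.

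Col6a3, which joins those chains in the trimer, was far lower by symbol: 9.81 and 5.45 in the control, 0.0592 and 6.91 in Free-MK1775, 1.30 and 0.276 in Free-MK1775+NLG919, 0.000246 and 0.390 in Lipo-MK1775, and 2.03 and 16.0 in Lipo-MK1775+NLG. With the symbol-less transcripts it was at 27.7 and 29.3, 11.6 and 25.7, 8.32 and 1.42, 2.15 and 4.54, and 14.0 and 16.98 in the same order. The replicates agreed better on the summed locus, and the change in Lipo-MK1775 was -2.82 on either sum, with limma adjusted p = 0.0127 with and 0.0698 without the added transcripts.

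Col8a1 was at 103 and 97.2 rescaled FPKM in the control, 74.6 and 97.6 in Free-MK1775, 114 and 30.5 in Free-MK1775+NLG919, 31.9 and 37.7 in Lipo-MK1775, and 107 in both libraries of Lipo-MK1775+NLG. The 3 libraries of high mitochondrial share were the 3 lowest, as for the type IV pair. The log2 change in Lipo-MK1775 was -1.50 (SE 0.50, limma adjusted p = 0.0596), below the median of all genes, and -0.63 under median-of-ratios scaling.

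The fibril-associated Col12a1 and Col14a1 did not share a pattern; these and the skin collagens are described after their values had been seen. Col12a1 was at 31.4 and 33.2 in the control, 4.84 and 8.92 in Lipo-MK1775, 13.7 and 15.2 in Lipo-MK1775+NLG, 16.97 and 29.0 in Free-MK1775, and 25.1 and 1.97 in Free-MK1775+NLG919, below both control libraries in all 8 treated ones and called in no group (limma adjusted p of 0.0881 to 1). Col14a1 ran from 5.03 to 7.49 in 9 libraries and was at 14.0 in Free-MK1775+NLG919 replicate 1.

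Col17a1 was high in the libraries with epidermis markers. Col17a1, a hemidesmosome protein of basal keratinocytes, was at 16.1 in negative control replicate 1, 10.2 in Lipo-MK1775+NLG replicate 2 and 3.50 in Free-MK1775 replicate 2, and at 0.132 or less in the other 7 libraries. The summed level of 10 epidermis markers was 1321, 986 and 383 in those 3 libraries and 4.31 to 12.7 in the others; Krt14 was at 449, 568 and 60.02, and at 1.70 or less elsewhere. No group had both libraries high, and Col17a1 was called in no comparison. Col7a1, the anchoring fibril of the same junction, did not follow: it was at 34.1, 27.8 and 39.9 in those libraries, and its highest level, 54.3, was in negative control replicate 2, where epidermis markers summed to 8.63. Another symbol, Mir711, shares the Col7a1 locus.

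**Figure D5:**
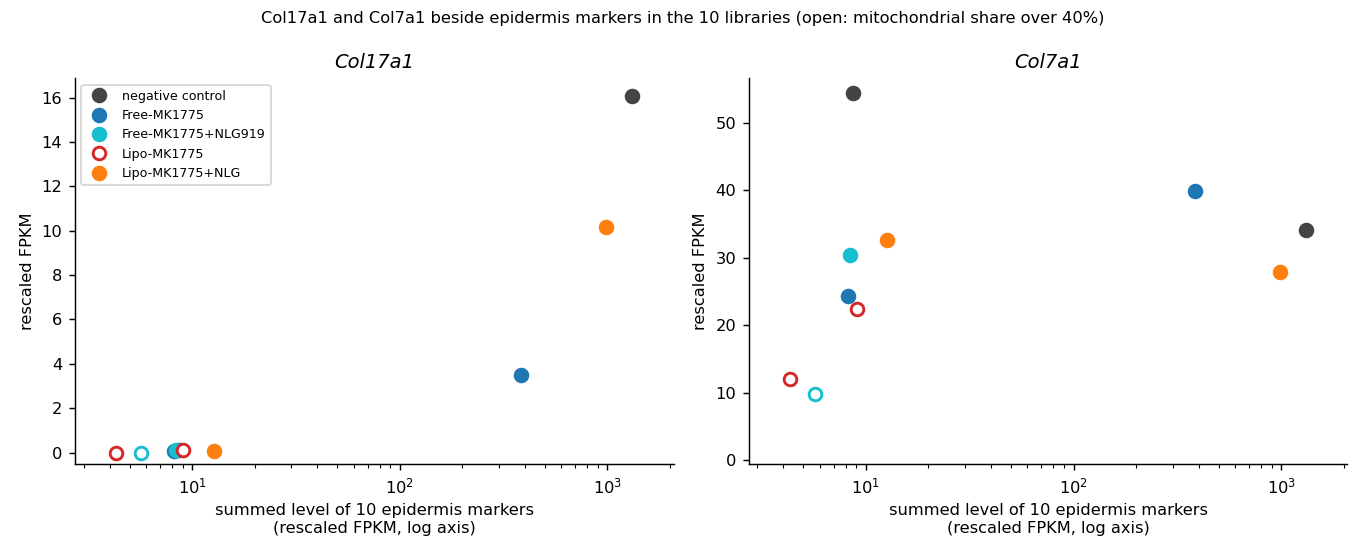
Rescaled FPKM of Col17a1 (left) and Col7a1 (right) against the summed level of 10 epidermis markers (log axis), 1 point per library, coloured by group and open for a mitochondrial share over 40%. Col17a1 exceeds 1 only in the 3 libraries where the markers sum to 383, 986 and 1321, while Col7a1 is at 9.81 to 54.3 in libraries without them.

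Free-MK1775 against the control called 0 of 22 collagens by limma, beside 0.0129% of all genes, and 0 had an unadjusted p under 0.05, beside 1.96% of all genes. The median was 0.00, beside -0.06 over all genes, 11 members were higher and 11 lower, and 3 did not overlap between groups (2 higher and 1 lower, beside 13.1% of all genes higher and 20.2% lower without overlap). The smallest p belonged to Col6a3 (-1.53, unadjusted p = 0.164). Free-MK1775+NLG919 against the control called 0 of 22 as well, beside 0.0194% of all genes; 9 had an unadjusted p under 0.05 (beside 21.7% of all genes), among them Col9a3, which passed the filter only through this group. Of the 22, 9 were lower without overlap (beside 40.7% of all genes) and 6 higher without overlap (27.3%, with the share over all genes not reported here). The median was -0.86, beside -0.44 over all genes. That median was -0.13 without the 3 libraries of high mitochondrial share, beside -0.10 over all genes. Against Free-MK1775 the same group had 0 members called (0 of all genes too, by limma) and 4 at an unadjusted p under 0.05, beside 10.7% of all genes. Lipo-MK1775+NLG against Free-MK1775+NLG919 had 0 called, beside 0.0129% of all genes, and 2 at an unadjusted p under 0.05 (beside 12.5% of all genes), Col4a2 (1.07) and Col4a1 (1.07), each with limma adjusted p = 0.373.

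For genes that make and modify collagen, the values in Lipo-MK1775 lay near those of all genes. Of 27 tested processing genes (prolyl and lysyl hydroxylases, chaperones, propeptidases and lysyl oxidases), limma called 6 lower and 0 higher against the control (19.4% of all genes were called lower), and the median was -0.71, beside -0.78 over all genes. The prolyl hydroxylase subunit P4hb was at 811 and 825 in the control and 486 and 516 in Lipo-MK1775 (-0.71, limma adjusted p = 0.128), and the isomerase Ppib at 626 and 762 against 410 and 460.1 (-0.67, limma adjusted p = 0.102). With NLG919 added to Lipo-MK1775, 3 of 27 were called higher, beside 5.34% of all genes called. In the 3 other comparisons with the control, 0 of 27 were called. Of all genes, 0.0129% were called in Free-MK1775, 0.0194% in Free-MK1775+NLG919 and 0.00646% in Lipo-MK1775+NLG.

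Among genes listed as collagen receptors, limma called 3 of 10 lower in Lipo-MK1775 against the control, beside 19.4% of all genes called lower. The median was -1.49, beside -0.78 over all genes. Cd93, in the list but better known as an endothelial receptor, was at 58.5 and 43.6 in the control and 16.1 and 15.4 in Lipo-MK1775 (-1.62, limma adjusted p = 0.0251). The integrin subunit Itgb1 was at 482 and 529 against 237 and 173 (-1.32, limma adjusted p = 0.0717). Of 13 genes of the TGF-beta axis, which drives fibrillar collagen synthesis in fibroblasts, 6 were called lower (median -1.29), to be read beside the same 19.4% and -0.78. Tgfb1 was at 169 and 151 in the control, 57.3 and 73.1 in Lipo-MK1775 (-1.29, limma adjusted p = 0.0292) and 161 and 153 in Lipo-MK1775+NLG, and the latent binding protein Ltbp2 at 80.8 and 87.0, 29.5 and 31.9, and 97.5 and 89.3. Of the fibril-associated matrix genes 3 of 15 were called lower, a share near that of all genes, with a median of -0.18, above that of all genes; Fn1 was at 204 and 331 in Lipo-MK1775 (-2.24, limma adjusted p = 0.0315). In Lipo-MK1775+NLG against the control 0 genes of these 3 lists were called, beside 0.00646% of all genes.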

How the data were processed

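RNA-seq was done on 10 tumour samples. Per the submitters' processing notes, reads were checked with FastQC, trimmed with Trim Galore, mapped to GRCm39 with HISAT2 and assembled with StringTie (versions and strand setting: not given in the sources used here); the authors deposited 1 FPKM value per transcript and library, with no counts, so the depth is unknown. The table lists 161762 transcripts, 21051 of them without a gene symbol. FPKM values with a symbol were summed per gene and rescaled so that rows outside the mitochondrial genome sum to 1000000 per library. Genes at 1 or more in at least 2 libraries (15469) were tested on log2(value + 1), a scale that understates changes of low genes. Limma 3.58.1 (R 4.3.3) was fitted to all 10 libraries with 1 mean per group and a variance trend, in 8 comparisons, with Benjamini-Hochberg adjustment over all genes and a threshold of 0.05. The script was tested on simulated data. Sums and figures used Python 3.11.15, numpy 2.4.6, pandas 2.3.3 and matplotlib 3.10.9. As a main alternative, symbol-less assembled transcripts were assigned to the gene at their locus (14868 transcripts; 15677 genes tested). Other alternatives were other scalings, pseudocounts and filters, the highest transcript per gene, a replicate block, and leaving out each library. Genes described are the 3 highest of each class, each called member, the 2 of smallest p where none was called, and chains of the ratios; from the other lists the 2 highest genes serve as examples. The members and lists were chosen with earlier results of these data known. Promoter windows are RefSeq's.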

Additional observations from a re-analysis of the deposited data

Results flagged for a closer look

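The change that went with NLG919 differed between the Lipo and the free form for 3 collagens, by limma's test of the difference itself. It was higher in the Lipo form by 3.12 log2 units for Col4a1 (SE 0.64, limma adjusted p = 0.0393), by 3.16 for Col4a2 (SE 0.57, limma adjusted p = 0.0371) and by 2.28 for Col15a1 (SE 0.67, limma adjusted p = 0.0465), beside 21% of all genes called for this difference. With symbol-less transcripts added, 8 collagens were called (those 3 with Col5a3, Col6a3, Col8a1, Col16a1 and Col18a1), beside 44.6% of all genes. Of the 4 groups in it, the 3 libraries of high mitochondrial share are both of Lipo-MK1775 and 1 of Free-MK1775+NLG919, so the difference and that share cannot be told apart.

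Transcripts without a symbol at the Col6a1 locus, which no comparison by symbol uses, were listed at 6.38 and 0.10 rescaled FPKM in the Lipo-MK1775+NLG libraries (mean 3.24) and at 0 in the other 8.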

How the results depend on the processing

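Replicate numbers did not pair the samples: a check of pairing, made for each pair of groups, gave correlations of -0.204 to 0.0654. With a replicate block the collagens called in Lipo-MK1775 against the control stayed at 3, while they fell to 0 for Lipo-MK1775+NLG against Lipo-MK1775 and to 0 for Lipo-MK1775 against Free-MK1775. The number of collagens called in Lipo-MK1775 against the control was 9 with deposited FPKM, 1 with no filter, 9 with assembled transcripts, 8 with only the groups compared and 0 to 7 without single libraries: 7 without either Free-MK1775+NLG919 library, and 0 without Lipo-MK1775 replicate 1 or any control or Lipo-MK1775+NLG library. For Lipo-MK1775+NLG against Lipo-MK1775 it was 5 with deposited FPKM, 0 with median-of-ratios or quantile scaling, no filter or the highest transcript, 6 with assembled transcripts, 1 with no variance trend, 4 with only these groups and 0 to 8 without single libraries. For Lipo-MK1775 against Free-MK1775 it was 7 with deposited FPKM, 0 with median-of-ratios or quantile scaling, no filter, the highest transcript or no trend, 1 with a pseudocount of 0.1, 6 with assembled transcripts, 5 with only these groups and 0 to 6 without single libraries. Without single libraries it ran from 0 to 11 for Free-MK1775+NLG919 against the control, 0 to 10 against Free-MK1775, and 0 to 9 between both NLG919 groups, highest without Free-MK1775+NLG919 replicate 1. The cause was not tested.

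The collagen median in Free-MK1775+NLG919 against the control was -0.34 under median-of-ratios scaling, -0.31 with no filter and -1.76 to -0.13 without single libraries. Without the 3 libraries of high mitochondrial share it was -0.13, and -0.32 with assembled transcripts too, an alternative chosen after seeing the data; for Lipo-MK1775, whose libraries are both among the 3, it could not be run. In Lipo-MK1775 against the control the median was -0.36 under median-of-ratios scaling, -0.30 under quantile scaling and -0.36 with no filter. The fibrillar minus type IV median there was 1.23 under median-of-ratios scaling, 1.24 with a pseudocount of 0.1, 1.30 with a wider basement membrane class, 2.15 with 5 fibrillar chains and 1.65 to 2.19 without single libraries. With no filter, which adds members near 0, it was -0.034, and it was -0.40 for Free-MK1775+NLG919 and -0.42 for Lipo-MK1775+NLG. Without single libraries it was -0.035 to 0.70 for Free-MK1775+NLG919 and -1.001 to -0.46 for Lipo-MK1775+NLG. With the wider class the log2 ratio of fibrillar to basement membrane collagen was -0.88 in the control, -0.74 in Free-MK1775, -0.50 in Free-MK1775+NLG919, 1.06 in Lipo-MK1775 and -1.50 in Lipo-MK1775+NLG, where single libraries with the main class gave -1.36 to -0.92. With 2 libraries a group and no counts, small changes of low collagens were not detectable.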
